A study of Danio rerio with 12 samples.

Results

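The egr and nr4a genes of the zebrafish heart are described here across 4 adult ages. The members are the genes named egr1, egr2a, egr2b, egr3, egr4, nr4a1, nr4a2a, nr4a2b and nr4a3 in the deposited tables. These 9 symbols cover 10 gene records of 50640, because egr2a is listed under 2 identifiers, with 6 egr and 4 nr4a records in all. The genes were chosen because egr1 and nr4a1 were lower at 36 than at 6 months in these same libraries. Their levels at 36 against 6 months are therefore a description and carry no test.

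Both families are early response genes, which cells transcribe within minutes of a stimulus without needing new protein. Egr proteins are zinc finger transcription factors that bind GC-rich sites, and in mammalian heart EGR1 is induced by stretch and by hypertrophic signals. Nr4a proteins are orphan nuclear receptors that act without a known classical ligand, so their activity follows largely from how much of them is made. Growth factor and stress kinases switch both families on through the serum response factor SRF and through CREB.

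Total RNA of hearts (Danio rerio) was sequenced at 6, 12, 24 and 36 months of age, with 3 libraries per age and 12 in all, to follow natural ageing. The fish were kept under standard conditions. Strain, sex, pooling and the time of day of collection are not given in the labels, and every group carries the same description apart from age. Whether replicates came from separate animals is not labelled, and the p-values below speak of the spread of these libraries, which may be technical. Levels are FPKM, fragments scaled to gene length and to a library size, as the authors gave them for each library. Being per length, they can be compared between genes. Reads in genes ranged from 7333060 to 11145869 per library. The library size behind the FPKM did not follow these reads alone, and how it was set is not given. Replicates 1 and 2 of 24 months had 10321659 and 10329722 reads in genes. For a gene of 1 kilobase, 1 read was 0.102 FPKM in replicate 1 of 24 months and 0.0899 FPKM in replicate 2. Differences between ages are on the log2(FPKM + 1) scale, on which the change of a low gene comes out too small, and carry a standard error from a fit over all genes. In bulk hearts, fewer cells of a type and less RNA per cell cannot be told apart.

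The heart marker nppa, an atrial natriuretic peptide, stood at 3120 to 7022 FPKM in all libraries. Of the 13 cardiomyocyte marker records matched, 7 reached 1 FPKM and 6 did not (nppb, tnnc1a, tnnt2a, ttn.1, ttn.2 and vmhc). At 6 months, replicate 1 differed from its fellow libraries in several markers. Its level of the muscle creatine kinase ckma was 970 FPKM, against 4762 and 4080 FPKM in replicates 2 and 3, and its level of the liver apolipoprotein apoa1b was 88.0, against 1.64 and 3.36. The level of apoa1b was higher still in replicate 2 of 12 months, at 325.5 FPKM, against 2.54 and 9.94 in replicates 1 and 3. For the 3 members measured well and for the named genes called at 36 against 6 months, the value without replicate 1 of 6 months is also given.

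Only egr1, egr3 and nr4a1 were well measured. These 3 records had a mean of at least 1 FPKM over the 12 libraries, the level required for a test, as did 16223 records in all. They held 95.2% to 99.7% of the summed FPKM of the 10 records in every library. The other 7 records had a mean below 1 FPKM. That share leaves out the unnamed loci on the same strand over nr4a3 and nr4a2b, described below, which averaged 19.4 and 0.484 FPKM. Among the 3, nr4a1 was the highest in every library, at 1.104 to 6.99 times the FPKM of egr1, and egr1 was in turn 3.23 to 25.4 times the FPKM of egr3.

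The zinc finger factor egr1 (ENSDARG00000037421; GRCz11 chromosome 14, 21035277 to 21039140, minus strand; listed gene length 3158 bases) is the best known Egr member. It stood at 102, 82.5 and 58.5 FPKM in the 3 libraries of 6 months and at 19.8, 21.3 and 12.9 at 12 months. At 24 months it was 14.1, 69.9 and 17.1 FPKM, and at 36 months 8.96, 13.5 and 14.6. All 3 libraries of 6 months lay above all those of 12 and 36 months, and replicate 2 of 24 months was the only other library above 22 FPKM. The level was 12.4 ± 3.0 FPKM at 36 months and 80.9 ± 21.6 at 6 months (SD, n = 3 each), a log2 difference of -2.61 ± 0.49. At 12 against 6 months the log2 difference was -2.10 ± 0.49, and between 36 and 12 months it was -0.51 ± 0.49 with overlapping values. At 24 against 6 months it was -1.57 ± 0.49 and at 36 against 24 months -1.03 ± 0.49, both with overlapping values.

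The orphan receptor nr4a1 (ENSDARG00000000796; chromosome 23, 32224792 to 32236279, minus strand; listed length 3303 bases), also called Nur77, had the highest level of the members. It stood at 112, 307 and 230 FPKM at 6 months, at 118, 90.4 and 57.8 at 12 months and at 98.3, 147 and 59.9 at 24 months. At 36 months it was 29.3, 26.8 and 33.2 FPKM. The 3 libraries of 36 months lay below each of the other 9, while those of 12 and 24 months overlapped with those of 6 months only through replicate 1 of 6 months. Of all genes tested, 14.4%, 15.0% and 13.3% were lower with no overlap at 36 against 6, 12 and 24 months. The share lower than all 9 at once was not taken. The mean was 29.8 ± 3.21 FPKM at 36 months and 216 ± 98.2 at 6 months (SD, n = 3 each), a log2 difference of -2.71 ± 0.40. The log2 difference of 36 against 24 months was -1.65 ± 0.40 and that of 36 against 12 months -1.49 ± 0.40. That of 12 against 6 months was -1.22 ± 0.40 and that of 24 against 6 months -1.06 ± 0.40, both with overlapping values. Whether the courses of egr1 and nr4a1 differ was not tested.

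The third measured member, egr3 (ENSDARG00000089156; chromosome 8, 50738574 to 50744862, plus strand; listed length 3258 bases), is known in mice for the development of muscle spindles. It stood at 3.998, 15.8 and 6.31 FPKM at 6 months, at 4.32, 4.53 and 3.99 at 12 months and at 4.29, 6.37 and 4.84 at 24 months. At 36 months it was 2.72, 2.29 and 3.51 FPKM, below each of the other 9 libraries, with the shares of all genes given above for nr4a1. Its mean was 2.84 ± 0.616 FPKM at 36 months and 8.71 ± 6.27 at 6 months (SD, n = 3 each), with a log2 difference of -1.16 ± 0.35. That difference was -0.67 without replicate 2 of 6 months, the highest library, and -1.54 without replicate 1.

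**Figure D1:**
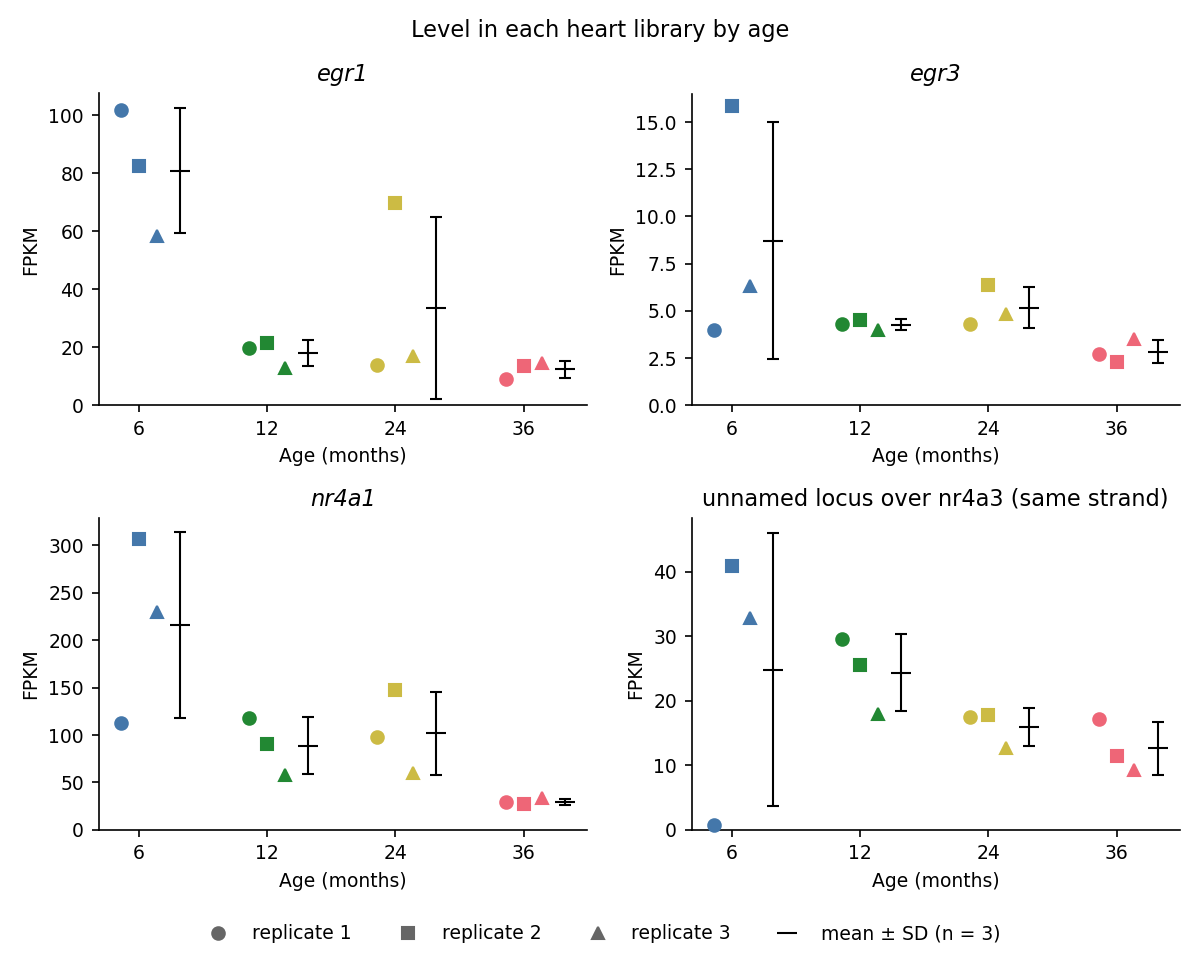
FPKM (vertical axes, from 0) of egr1, egr3, nr4a1 and the unnamed locus over nr4a3 by age in months, 1 symbol per library, with the mean ± SD of 3 libraries at each age (bars below 0 are not drawn). The 3 libraries of 36 months sit lowest for nr4a1 and egr3, replicate 2 of 24 months is high for egr1 at 69.9 FPKM, and replicate 1 of 6 months is near 0 for the locus.

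Values of 36 and 6 months did not overlap for all 3 measured members, each lower at 36 months, where 14.4% of all genes tested were lower with no overlap. The members were chosen on that contrast, so nothing is read from the count. In the 4 comparisons that share libraries with it, the values are given without a test. At 12 against 6 months 1 of the 3, egr1, was lower with no overlap (6.80% of all genes). At 24 against 6 months 0 of the 3 were (10.2% of all genes): replicate 2 of 24 months lay among the 6-month values of egr1, replicate 1 of 6 months among the 24-month values of nr4a1, and the egr3 values of both ages were interleaved. At 36 against 12 months (15.0% of all genes) and 36 against 24 months (13.3% of all genes), nr4a1 and egr3 were lower with no overlap and egr1 overlapped. Without replicate 1 of 6 months the log2 difference of 36 against 6 months was -2.43 for egr1 and -3.12 for nr4a1.

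**Figure D2:**
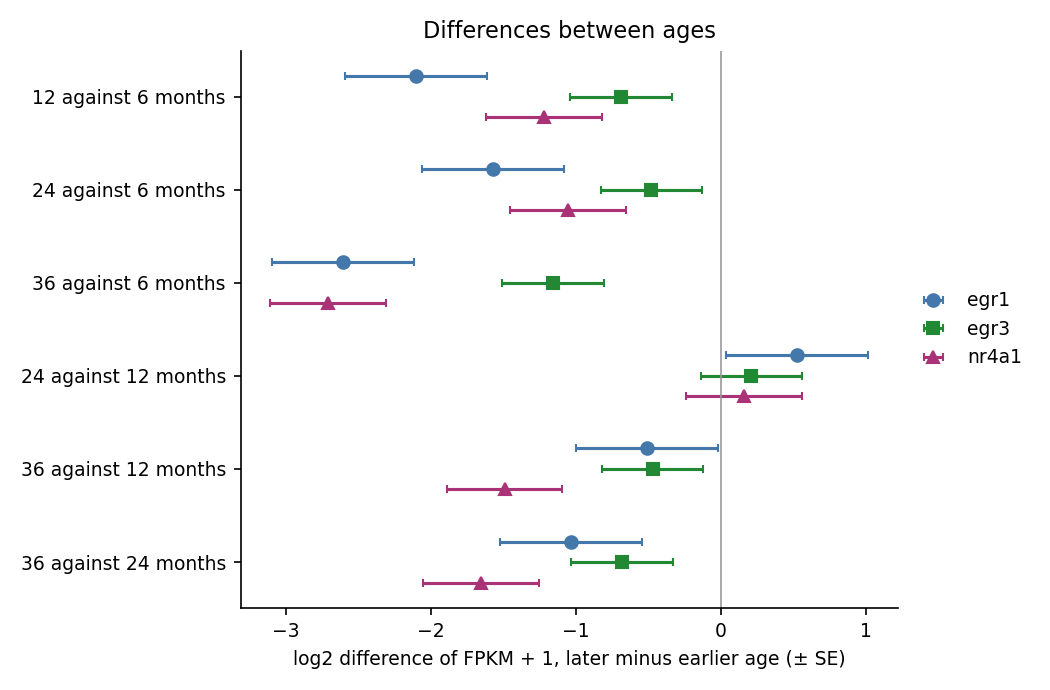
Log2 difference of FPKM + 1, later minus earlier age, with its standard error, for egr1, egr3 and nr4a1 in the 6 pairwise comparisons of age. The points for 24 against 12 months are the only ones above 0 (0.53, 0.21 and 0.16), and those for 36 against 6 months lie farthest below it for each of the 3 genes.

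The comparison of 24 with 12 months shares no library with the contrast that chose the members, and it was tested with limma over all genes. Of the 3 measured members 0 passed an adjusted p of 0.05 by limma, 0 had an unadjusted p under 0.05 and 0 passed with limma voom on reads, where 0.715% of all genes tested passed limma. Values of the 2 ages overlapped for all 3, where 11.2% of all genes were lower and 11.9% higher with no overlap. For egr1 the log2 difference was 0.53 ± 0.49 (95% interval -0.55 to 1.60, adjusted p = 0.669 by limma), for egr3 0.21 ± 0.35 (-0.56 to 0.98, adjusted p = 0.825) and for nr4a1 0.16 ± 0.40 (-0.72 to 1.04, adjusted p = 0.891). The intervals are wide enough to hold a doubling of FPKM + 1 for egr1 and nr4a1. Without replicate 2 of 24 months the difference of egr1 was -0.18 and that of nr4a1 -0.15, and without replicate 3 of 12 months that of nr4a1 was -0.11. Macrophage and granulocyte markers summed to 473 to 1486 FPKM at 24 months and 219 to 385 FPKM at 12 months, and erythroid markers to 1209 to 2947 FPKM at 24 months and 5722 to 6672 FPKM at 12 months. Single genes held much of these sums. The gene lyz stood at 347, 1336 and 781 FPKM at 24 months and 133, 316 and 119 at 12 months. The globin gene hbba2 stood at 2902, 1755 and 1179 FPKM at 24 months and 5940, 5692 and 6610 at 12 months. Hepatocyte markers summed to 35.7 to 69.6 FPKM at 24 months and 11.95 to 904.7 FPKM at 12 months, with overlap. Of these, apoa1b stood at 325.5 FPKM in replicate 2 of 12 months. Without replicate 2 of 12 months the log2 differences were 0.66 for egr1, 0.25 for egr3 and 0.21 for nr4a1. The markers lcp1, marco, ptprc, hbaa1, slc4a1a, gata1a and tfa stayed under 1 FPKM throughout. The part of these cell types in the values was not tested.

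The spread between libraries of an age was above the median of all genes for egr1 at every age, and for nr4a1 at every age but 36 months. At 24 months the SD of egr1 on the log2 scale was 1.22, larger than that of 98.7% of genes tested, whose median was 0.215, and at 6, 12 and 36 months it was 0.397, 0.370 and 0.348. For nr4a1 the SD was 0.744 at 6, 0.512 at 12 and 0.642 at 24 months, and 0.150 at 36 months, where 28.3% of genes had a smaller SD. For egr3 it was 0.896 at 6 months and 0.0756 at 12 months, where 10.2% of genes had a smaller one. In the high library of 24 months, replicate 2, other early response genes were also often the highest of the 3 libraries, in 30 of 57 genes against 33.7% of all genes. They were the lowest there in 18 of 57, against 34.8% of all genes. Such a share was not particular to this library: replicate 3 of 36 months was the highest in 26 of 57, against 33.6% of all genes. The AP-1 gene fosab, the gene most like egr1 over these libraries, stood at 43.7 FPKM in replicate 2 of 24 months, against 10.7 and 15.2 in replicates 1 and 3. That likeness was taken with this library included, so nothing is read from the high fosab value there. The neutrophil and macrophage lysozyme gene lyz stood at 1336 FPKM in the same library, against 347 and 781. It is 1 of 9 macrophage and granulocyte markers and held much of their sum, 473 to 1486 FPKM at 24 months. Whether the other markers were also higher in that library was not tested.

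Within an age, none of the 3 pairs of measured members passed the test for moving together (0 of 3). Correlations were taken over the 12 libraries as deviations from the mean of each age on the log2(FPKM + 1) scale, which the choice of the members did not use, and tested by exact permutation of libraries within ages (two-sided) over 3 pairs. For egr1 and nr4a1 Pearson's r was 0.40 (exact permutation p = 0.396, adjusted p = 0.434) and Spearman's rank correlation 0.22 (exact permutation p = 0.566, adjusted p = 0.566). For egr1 and egr3 r was 0.21 (exact permutation p = 0.434, adjusted p = 0.434) and the rank correlation 0.35 (exact permutation p = 0.332, adjusted p = 0.498). For egr3 and nr4a1 r was 0.71 (exact permutation p = 0.0586, adjusted p = 0.176) and the rank correlation 0.69 (exact permutation p = 0.0694, adjusted p = 0.208). The 2 libraries with the largest deviations of the first gene of each pair were then left out, with age means not taken again. On that basis r was 0.23, 0.01 and 0.45 in the same order. The egr1 and nr4a1 levels lay closest in replicate 1 of 6 months, which had the highest egr1 level of all libraries and the lowest nr4a1 level of its age, an nr4a1 to egr1 ratio of 1.104. That ratio was 3.72 and 3.92 in the other 6-month libraries, 4.24 to 5.93 at 12 months, 2.10 to 6.99 at 24 months and 1.98 to 3.27 at 36 months. With age means taken anew, r between egr1 and nr4a1 was 0.72 without replicate 1 of 6 months (exact permutation p = 0.123). Without replicate 2 of 24 months it was -0.06 (exact permutation p = 0.891), also with age means taken anew.

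**Figure D3:**
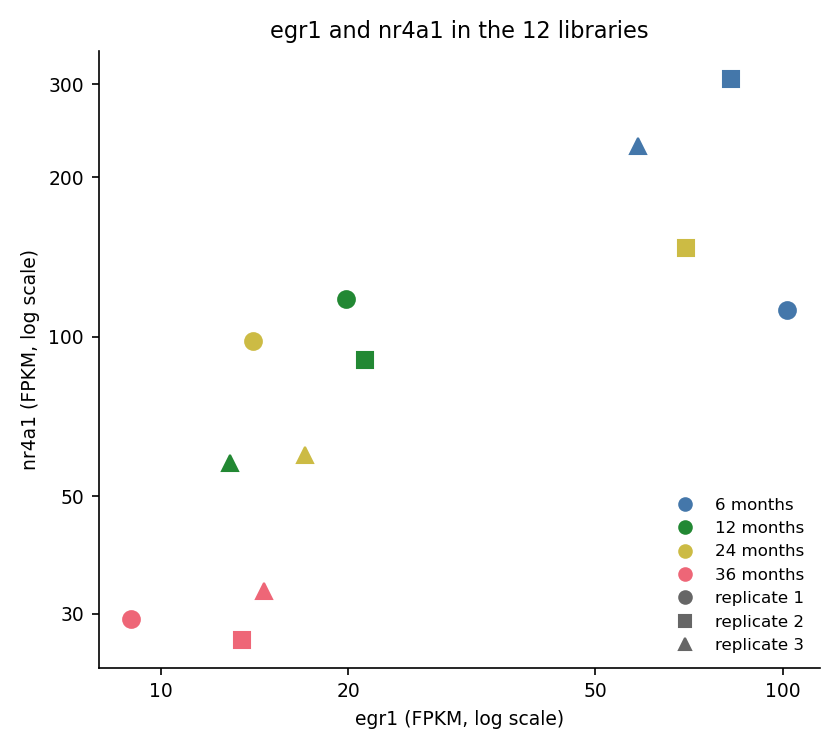
FPKM of nr4a1 (vertical, log scale) against FPKM of egr1 (horizontal, log scale) in the 12 libraries, coloured by age in months, with a symbol for the replicate number. The 36-month libraries lie lowest on the nr4a1 axis, at 26.8 to 33.2 FPKM, and replicate 1 of 6 months lies to the right of all others, at 102 FPKM of egr1 and 112 of nr4a1.

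The remaining egr records had few reads. The gene egr2b (ENSDARG00000042826; chromosome 12, 8445995 to 8466435, minus strand), known as krox20 and as a regulator of hindbrain segments and of myelination, stood at 0.741, 0.884 and 0.857 FPKM at 6 months and 0.330, 0.521 and 0.886 at 12 months. It stood at 0.655, 0.371 and 1.48 FPKM at 24 months and 1.31, 1.59 and 0.635 at 36 months, where it was 1.18 ± 0.489 against 0.828 ± 0.0759 FPKM at 6 months (SD, n = 3 each). The values of the 4 ages overlapped, and the mean of egr2b was highest at 36 months, where that of egr1 was lowest. The egr2a record on the minus strand of chromosome 17 (ENSDARG00000044098, 43672966 to 43686933) had 39 reads over all libraries, and 0 to 11 in each.

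Of the 27 reads of egr4, a gene best known from neurons (ENSDARG00000077799; chromosome 23, 45844302 to 45846431, plus strand), 23 came from the libraries of 6 months. Its level was 0.243, 0.863 and 0.212 FPKM at 6 months and 0 in all 3 libraries of 12 months. At 24 months only replicate 2 had reads, at 0.0920 FPKM, and at 36 months replicates 1 and 2 had 1 read each. The gene lies entirely inside the span of cyp17a2, a steroid enzyme gene on the opposite strand, which was at most 0.197 FPKM in any library. With so few reads no test was made. The second egr2a record (ENSDARG00000098502; chromosome 17, 13038697 to 13040546, plus strand) had 0 reads in all 12 libraries, which allows up to 0.142 to 0.221 FPKM per library (3 reads, counting error only). An unnamed locus on its strand covers all of it and was at most 0.159 FPKM.

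The nr4a2 genes, whose mammalian relative NR4A2 (Nurr1) is known for the development of dopamine neurons, had few or no reads in their own records. The nr4a2a gene (ENSDARG00000017007; chromosome 9, 5074586 to 5136894, minus strand) had 37 reads in all, 3 at 6 months, 3 at 12, 13 at 24 and 18 at 36 months. Its level was 0.152, 0.374 and 0.0645 FPKM at 36 months and 0.0531, 0.0337 and 0 FPKM at 6 months. Replicate 2 held 12 of the 18 reads of 36 months and 10 of the 13 of 24 months. The nr4a2b gene (ENSDARG00000044532; chromosome 6, 12227221 to 12231692, plus strand) had 0 reads in every library, which allows up to 0.0920 to 0.143 FPKM. That limit holds for reads given to its own record. An unnamed locus on the same strand covers it completely and stood at 0.274 to 0.750 FPKM, with 205 reads, so the nr4a2b level is uncertain in the same way as that of nr4a3, described next.

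**Figure D4:**
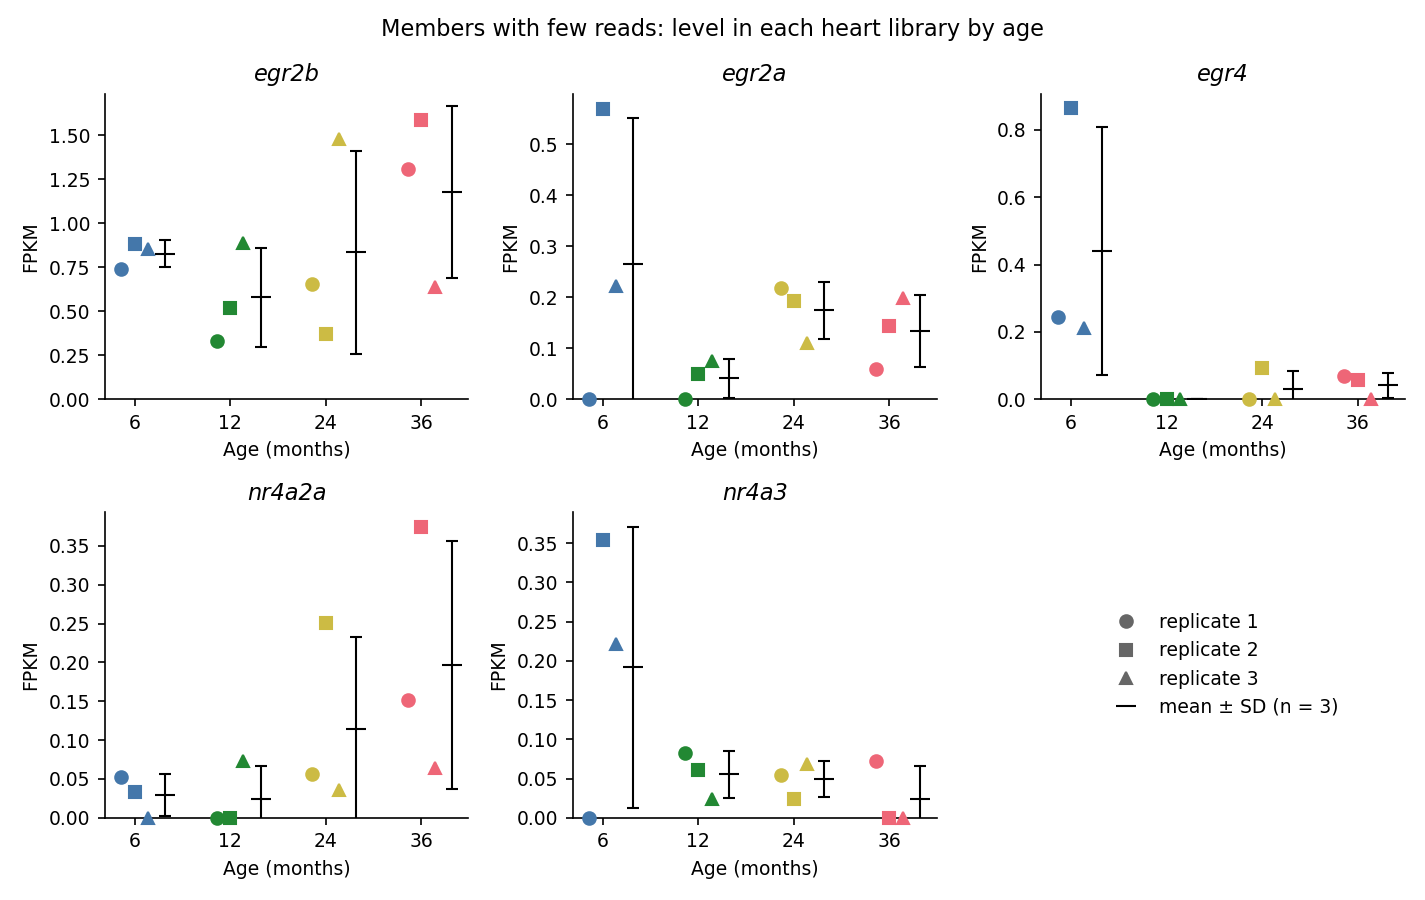
FPKM (vertical axes, from 0, with a scale of their own in each panel) of egr2b, egr2a (the record on the minus strand), egr4, nr4a2a and nr4a3 by age in months, 1 symbol per library, with the mean ± SD of 3 libraries (bars below 0 are not drawn). The highest value shown is 1.59 FPKM for egr2b, and egr4 lies at or near 0 after 6 months.

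The last member, nr4a3 or Nor1 (ENSDARG00000055854; chromosome 16, 27404450 to 27434715, plus strand), had only 32 reads in its own record and 0 to 0.353 FPKM per library. An unnamed locus (chromosome 16, 27402448 to 27434710, plus strand) lies on the same strand and covers 99.98% of its span, and 8366 reads were given to that locus. How reads shared by both records were counted is not stated, so the nr4a3 level is uncertain, and transcripts of nr4a3 and of the locus cannot be told apart here. The gene is also contained in erp44, an endoplasmic reticulum chaperone gene on the opposite strand at 42.7 to 69.2 FPKM. The use of strand in counting is not stated.

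The locus over nr4a3 was 0.784, 40.9 and 32.8 FPKM at 6 months, 29.6, 25.5 and 17.9 at 12 months, 17.5, 17.7 and 12.6 at 24 months and 17.1, 11.4 and 9.31 at 36 months. Apart from replicate 1 of 6 months, which was the lowest of all, the 6-month libraries were the highest. The values of 24 months lay narrowly below those of 12 months (at most 17.7 against at least 17.9 FPKM). Of all genes tested, 11.2% were lower with no overlap in that comparison. The log2 difference of 36 against 6 months was -0.04 with all libraries and -1.51 without replicate 1 of 6 months. The mean was 12.6 FPKM at 36 months and 36.9 FPKM in the 2 remaining libraries of 6 months. The locus was picked out after its values were seen, and it was not tested. The antisense RNA gene CR524821.1, on the opposite strand, stood at 0.648, 11.9 and 3.79 FPKM at 6 months and 2.10, 1.20 and 0.218 at 12 months. It was at most 0.442 FPKM at 24 months and 0.0843 FPKM at 36 months. A second unnamed locus, on that opposite strand, was 0.356, 14.3 and 5.95 FPKM at 6 months and 0.108 to 0.272 FPKM at 36 months. All 3 records were lowest at 6 months in replicate 1.

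**Figure D5:**
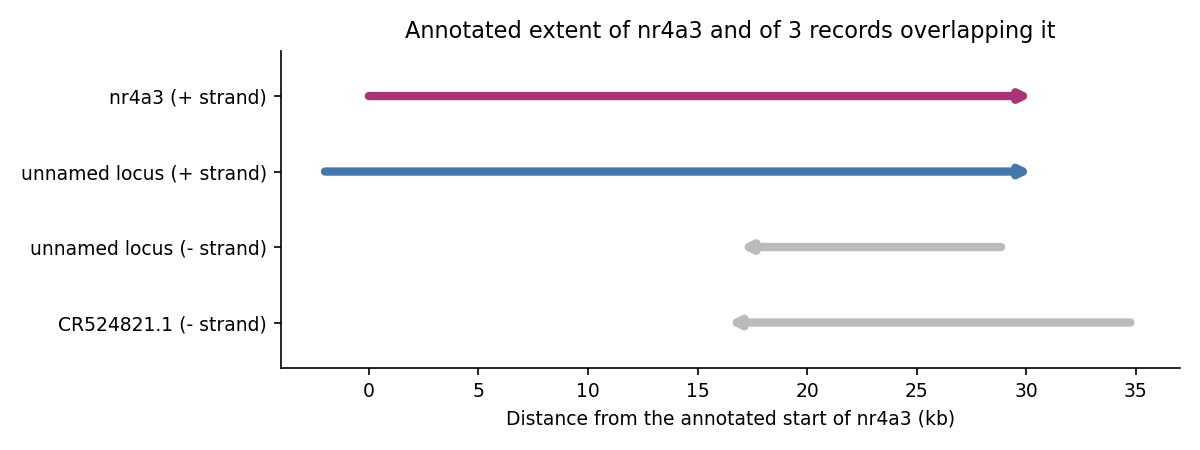
Extent of nr4a3 and of 3 overlapping records in kilobases from the annotated start of nr4a3, with arrows pointing along the strand of each. One unnamed locus runs along nr4a3 on the same strand, while another and CR524821.1 lie on the opposite strand. The erp44 gene, which contains nr4a3, is not drawn.

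Other early response genes were set beside the members. Of 76 records on the list 57 were tested. At 36 against 6 months, limma called 12 lower (4.30% of all genes) and 1 higher (3.95% of all genes) at an adjusted p of 0.05, and 44 did not pass, where 8.25% of all genes passed in either direction. The median log2 difference of the list was -0.57, beside 0.00 for all genes tested. This list holds genes already known to be lower in these libraries, so its direction is not independent evidence. Those with the smallest p were atf3, jun, btg2, fosab, ier5 and hbegfa. The stress factor atf3 stood at 70.1, 50.03 and 49.4 FPKM at 36 months and 227, 353 and 297 FPKM at 6 months, with 152 to 226 at 12 and 170 to 291 at 24 months (log2 -2.35 ± 0.24, adjusted p = 0.00104 by limma). For hbegfa, an EGF family ligand, the values were 34.9, 36.6 and 43.0 FPKM at 36 months and 76.5, 95.4 and 63.4 FPKM at 6 months (log2 -1.005 ± 0.18, adjusted p = 0.011 by limma). The log2 differences of the AP-1 genes jun and fosab were -1.47 ± 0.19 and -3.04 ± 0.43, that of ier5 was -1.09 ± 0.19 and that of the antiproliferative gene btg2 -2.72 ± 0.38 (adjusted p = 0.00283, 0.00484, 0.011 and 0.00457 by limma). Without replicate 1 of 6 months the log2 differences were -2.52 for atf3, -1.51 for jun, -2.84 for fosab, -3.02 for btg2, -1.21 for ier5 and -1.01 for hbegfa, and all 6 passed the threshold. An unnamed locus overlaps btg2, and its level is uncertain. The 1 gene called higher was klf11a, a Kruppel-like factor, at 41.4 ± 8.44 FPKM at 36 months and 20.4 ± 6.91 at 6 months (SD, n = 3 each; log2 1.02 ± 0.23, adjusted p = 0.0271 by limma). Its log2 difference was 1.27 without replicate 1 of 6 months, and its call ended without replicates 2 or 3 of 6 months or 2 or 3 of 36 months (adjusted p = 0.083, 0.0869, 0.0883 and 0.0696) and in a fit of the 2 ages alone (adjusted p = 0.0986). The klf11a call also ended with no filter and with replicate number as a block.

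The count of 13 early response genes depended on single libraries, as did the count of 1338 among all genes. The early response count was 20 without replicate 1 of 6 months, 6 without replicate 2 and 7 without replicate 3 of 6 months, 6 without replicate 2 of 36 months, and 5 in a fit of the 2 ages alone. The count among all genes was 2088, 608, 591, 479 and 278 in the same order. The calls of ier5 and hbegfa ended in the fit of the 2 ages alone (adjusted p = 0.0579 and 0.0522 by limma). Hepatocyte markers summed to 0.854 to 5.47 FPKM at 36 months and 5.42 to 261 FPKM at 6 months, where replicate 1 was the highest. Of the 7, tfa stayed under 1 FPKM throughout. Macrophage and granulocyte markers summed to 178 to 888 FPKM at 36 months and 70.5 to 276 FPKM at 6 months, with lcp1, marco and ptprc under 1 FPKM throughout. The gene lyz alone held much of the highest sum. It stood at 686, 216 and 63.0 FPKM at 36 months and 76.3, 12.8 and 10.7 at 6 months, with overlapping values. Neuron and glia markers summed to 9.30 to 11.2 FPKM at 36 months and 9.33 to 12.2 FPKM at 6 months, with elavl3, syt1a and th under 1 FPKM throughout. Smooth muscle and pericyte markers, of which 3 of 5 records reached 1 FPKM and cspg4 and myh11a did not, summed to 455 to 729 FPKM at 36 months and 777 to 979 FPKM at 6 months, with no overlap. The highest of these markers, tagln, did overlap, at 473, 317 and 550 FPKM at 36 months and 516.5, 430 and 446 FPKM at 6 months. Of all single genes tested, 14.4% were lower with no overlap at 36 against 6 months. The part of these cell types in the levels of the members and of the other early response genes was not tested.

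At 24 against 12 months 0 of the 57 passed limma's adjusted p, while before adjustment 9 were higher (7.53% of all genes) and 5 lower (6.98% of all genes) at p under 0.05, with a median log2 difference of 0.24 beside 0.00 for all genes. The 2 with the smallest p were ctgfa and ctgfb, which encode the matrix protein connective tissue growth factor. The level of ctgfa was 195, 337 and 225 FPKM at 24 months and 103, 92.0 and 93.9 FPKM at 12 months (log2 1.34 ± 0.30, adjusted p = 0.0699 by limma). It passed the threshold without replicate 1 of 6 months (adjusted p = 0.0476) and without replicate 1 of 36 months (adjusted p = 0.0415). The values of 24 and 12 months did not overlap for ctgfa, where 11.9% of all genes were higher with no overlap. It was named for its p in this same comparison, so nothing is read from that separation.

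Genes upstream of the egr and nr4a families were also listed. Of 35 kinase, SRF and CREB pathway genes tested (70 records on the list) at 36 against 6 months, 1 was higher, 1 lower and 33 did not pass. The share that passed was 5.71%, near the 8.25% of all genes, and the list median was 0.08 on the log2 scale. Before adjustment 8 were higher (12.3% of all genes) and 2 lower (13.3% of all genes) at p under 0.05 by limma. No record of SRF itself was among the 35. The coactivator gene crebbpb, a histone acetyltransferase that binds CREB, was 18.6, 20.9 and 20.1 FPKM at 36 months and 11.1, 11.4 and 10.4 FPKM at 6 months (log2 0.80 ± 0.10, adjusted p = 0.00297 by limma). The protein kinase A subunit gene prkacaa was 17.7 ± 1.88 FPKM at 36 months and 25.3 ± 1.51 at 6 months (SD, n = 3 each; log2 -0.49 ± 0.11, adjusted p = 0.0245 by limma). Without replicate 1 of 6 months the log2 differences were 0.81 for crebbpb and -0.54 for prkacaa. The call of prkacaa ended without replicates 2 or 3 of 6 months or 1 or 2 of 36 months (adjusted p = 0.0779, 0.0691, 0.0654 and 0.079) and in a fit of the 2 ages alone (adjusted p = 0.114).

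Partners and reported targets were measured in the same way. Of 6 Nab corepressor and RXR genes tested (9 records), 0 passed at 36 against 6 months by limma, and before adjustment 1 was higher (12.3% of all genes) and 0 lower (13.3% of all genes) at p under 0.05. The receptor gene rxrbb, which can pair with Nr4a1, was 28.9 ± 1.62 FPKM at 36 months and 21.0 ± 1.63 FPKM at 6 months (SD, n = 3 each; log2 0.44 ± 0.12, adjusted p = 0.0518 by limma), and it passed without replicate 2 of 12 months (adjusted p = 0.0394) and not without replicate 1 of 6 months (adjusted p = 0.0748). For rxrgb the log2 difference was 0.29 ± 0.28, which was 0.0041 without replicate 3 of 6 months, 0.017 without replicate 3 of 36 months and 0.45 without replicate 1 of 6 months or of 36 months. The Egr corepressor gene nab2 was 1.72 ± 0.108 FPKM at 36 months and 1.53 ± 0.769 at 6 months. Of 14 genes tested (27 records) that are reported in mammals as targets of EGR1 or NR4A factors, 0 were higher and 1 lower at 36 against 6 months, where 8.25% of all genes passed, with a list median of -0.01, and 3 passed without replicate 1 of 6 months. That gene was f3b, the clotting starter tissue factor, at 122, 117 and 151 FPKM at 36 months and 480, 359 and 252 FPKM at 6 months (log2 -1.44 ± 0.32, adjusted p = 0.0238 by limma). The call of f3b ended without replicate 2 of 6 months and without replicate 1 or 2 of 36 months (adjusted p = 0.0654, 0.0684 and 0.0738), and without replicate 1 of 6 months its log2 difference was -1.22. With no filter the f3b call ended too. At 24 against 12 months 1 of the 14 was higher and 0 lower, where 0.715% of all genes passed. That gene was cdkn1a, the cyclin-dependent kinase inhibitor p21, at 45.8, 53.1 and 53.9 FPKM at 24 months and 16.7, 20.7 and 18.9 FPKM at 12 months (log2 1.40 ± 0.21, adjusted p = 0.0225 by limma). Its call ended without replicates 1 or 2 of 12 months or 1, 2 or 3 of 24 months, with adjusted p from 0.0662 to 0.111 by limma. Of all genes tested, 1 to 28 passed under those settings, where 116 passed with all libraries. With 1 library left out the log2 difference of cdkn1a ran from 1.32 to 1.47. At 36 against 6 months cdkn1a was 20.7 ± 5.65 FPKM at 36 months and 20.5 ± 4.93 FPKM at 6 months (SD, n = 3 each).

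The likeness of other genes to egr1 over the 12 libraries was taken as Pearson's r of log2(FPKM + 1), over 16222 genes. It reflects both age and single libraries, so it is a description. The named genes nearest to egr1 were fosab (r = 0.98), the early response gene ier2a (0.95), the salt-inducible kinase sik1 (0.94), jdp2b, an AP-1 dimer partner (0.92), and the formin fhod3b (0.89). Unnamed loci overlap sik1 and fhod3b. The level of ier2a was 107 ± 50.9 FPKM at 6 months, 37.3 ± 8.09 at 12, 64.3 ± 39.9 at 24 and 29.2 ± 0.828 at 36 months (SD, n = 3). Its SD was largest at 6 months, while that of egr1 was largest at 24 months (31.4 FPKM, against 21.6 at 6 months). The levels of jdp2b were 15.4 ± 6.15 FPKM at 6 months, 3.55 ± 0.51 at 12, 6.22 ± 2.82 at 24 and 3.63 ± 0.351 at 36 months.

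Other named genes were nearest to nr4a1. Among them were s1pr5a, a sphingosine-1-phosphate receptor (r = 0.97), the deubiquitinase otud1 (0.95), ier5 (0.94) and the antiproliferative gene tob1b (0.94). The level of s1pr5a was 48.3 ± 18.1 FPKM at 6 months, 24.8 ± 8.05 at 12, 23.3 ± 3.4 at 24 and 12.6 ± 2.16 at 36 months (SD, n = 3). Like nr4a1, s1pr5a had close means at 12 and 24 months and its lowest mean at 36 months. Between members, egr3 ranked 98 and egr1 260 in likeness to nr4a1 (r = 0.86 and 0.80), while nr4a1 ranked 68 and egr3 377 in likeness to egr1. These r include the lower levels at 36 than at 6 months for which egr1 and nr4a1 were chosen, so nothing is read from them. With age means removed, r of egr1 and nr4a1 was 0.40 (exact permutation p = 0.396).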

How the data were processed

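Total RNA of 12 zebrafish heart libraries (3 at each of 4 ages) was sequenced by the authors. Per the submitters' processing notes CASAVA 1.8 and HISAT2 2.0.5 were used with the GRCz11 build; the counting tool and the annotation release are not given in the sources used here. The authors deposited FPKM per gene and library in 4 tables, 1 for each age. Multiplied by the listed gene length, 100% of values were whole multiples of 1 read (tolerance 0.01 read). For a gene of 1 kilobase, 1 read is 0.0878 to 0.136 FPKM.

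Log2(FPKM + 1) of records with a mean of at least 1 FPKM was fitted with limma 3.58.1 in R 4.3.3 (4 age means, all 12 libraries, eBayes with trend), adjusted by Benjamini-Hochberg over 16223 records, threshold 0.05, two-sided. On simulated data for 24 against 12 months 55% of 2-fold and 93% of 4-fold changes among 200 changed genes were called, with 8 calls of unchanged genes. The changed genes were drawn from the higher expressed ones, with normal noise at the spread of each gene. These shares may be too high for genes of large spread, such as egr1. Figures and correlations used Python 3.11.15, scipy 1.17.1 and matplotlib 3.10.9. The floor for 0 reads is 3 reads.

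The members, gene lists and tests were chosen with earlier results of these data known. All members are named. From each list the genes past the threshold were named, at most 6 by p (2 where none passed; 24 against 12 months for early response genes and targets), and the 5 genes most like egr1 and nr4a1, of which 1 is not reported here; klf11a, nab2, cdkn1a, CR524821.1 and the loci over nr4a3 were added after their values were seen. Alternatives are given in the closing section.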

Additional observations from a re-analysis of the deposited data

How the results depend on the processing

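The log2 differences of 36 against 6 months kept their sign under the 22 alternatives run. Many of these could not move the differences: other filters, the replicate block, the 2 ages alone and eBayes without trend. Leaving out a library of 12 or 24 months could not either. The kept sign is therefore no set of 22 separate checks, and the members were chosen on this contrast. Without single libraries the differences ran from -2.82 to -2.41 for egr1, -1.54 to -0.67 for egr3 and -3.12 to -2.40 for nr4a1. At 24 against 12 months 0 members passed limma's test under those alternatives, limma voom on the recovered reads among them, which called 1048 of all genes at 36 against 6 and 102 at 24 against 12 months. Without single libraries that difference ran from -0.18 to 0.94 for egr1 and -0.15 to 0.49 for nr4a1, below 0 without replicate 2 of 24 months for both and without replicate 3 of 12 months for nr4a1. With 1 library left out the early response genes past the threshold numbered 6 to 20 at 36 against 6 months and 0 to 1 at 24 against 12, kinase, SRF and CREB pathway genes 1 to 2, corepressors and RXR partners 0 to 1, reported targets 0 to 3 at 36 against 6 and 0 to 1 at 24 against 12 months (a count and its alternatives added after seeing the data), and all genes 479 to 2088 at 36 against 6 and 1 to 246 at 24 against 12 months. With no filter the counts were 8 early response genes, 0 reported targets and 889 and 53 of all genes (36 against 6 and 24 against 12 months), where 1338 and 116 passed before. At a minimum mean of 5 FPKM 1 early response gene passed at 24 against 12 months and 1 RXR partner at 36 against 6, and 1 RXR partner also with loci without a name left out, an alternative chosen after seeing the data. A fit of the 2 ages alone gave 5 early response genes, 1 pathway gene and 278 of all genes. The cause of these shifts was not tested. Replicate numbers did not pair the samples: over 18 same-numbered pairs r of the deviations ran from -0.154 to 0.106, and 4 of 12 libraries correlated best with a library of their own number. With replicate number as a block, 885 and 41 of all genes passed, 10 early response genes at 36 against 6 months, and 0 members at 24 against 12. The within-age r of egr1 and nr4a1 was 0.40, from -0.06 (-0.0629, without replicate 2 of 24 months) to 0.72 with 1 library left out. The depth limits egr2a, egr4 and nr4a2a, with at most 14 reads in a library. The nr4a3 record had at most 11 reads in a library, and its level is uncertain because of the unnamed locus over it.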
